A study of Mus musculus with 12 samples.

Results

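The 34 genes described here encode the folding machinery of the endoplasmic reticulum (ER) and the signalling of the unfolded protein response. They were chosen by symbol, from a list of ER chaperones, disulfide isomerases, degradation factors, stress sensors and transcription factors, out of 55487 gene identifiers in the count table. Each had enough reads to be kept, so all 34 were among the 12897 genes tested. Secreted and membrane proteins fold in the ER with the help of chaperones, and when unfolded proteins build up, 3 sensors in its membrane (Ern1, Atf6 and Eif2ak3) respond. Ern1 splices the Xbp1 messenger RNA, Atf6 is cut to release a transcription factor, and Eif2ak3 (PERK) slows translation while favouring that of Atf4. Their outputs raise chaperones and degradation factors, and under lasting stress the factor Ddit3 (CHOP). In kidney tubule cells the response is known from tubular injury and from protein overload.

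Messenger RNA was measured in mouse im_TEC cells, a conditionally immortalised tubular epithelial line with an SV40 large T antigen. Every group was taken off interferon γ and kept at 37 °C for 7 days before seeding, in a serum medium with insulin, hydrocortisone and epidermal growth factor. Cells were transduced with either a mock or an Nnmt construct and selected with puromycin, and cells of both kinds were cultured without or with 10 ng/mL of transforming growth factor β (TGFβ) over 48 h. That gave 4 groups of 3 libraries: mock, mock with TGFβ, Nnmt-OE and Nnmt-OE with TGFβ. Nnmt encodes nicotinamide N-methyltransferase. The labels give neither its promoter in the construct nor whether a cell population is 1 clone. The deposited values are counts of reads from tags near the 3′ end of transcripts, so counts scaled to the library size (CPM) need no length term. Molecular identifiers are not mentioned, so a transcript can give more than 1 read, and levels of different genes compare only roughly.

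Libraries held 4733846 to 7247413 reads in genes. Nnmt itself averaged 20.3 ± 3.84 CPM (SD, n = 3) in the mock libraries, against 25.3 ± 2.88 CPM under the Nnmt-OE label, and 30.3 ± 2.77 and 27.6 ± 5.8 CPM with TGFβ, so its count does not set the construct groups apart. A 3′ tag counts a construct only if it carries the native 3′ end, which is not described, and the groups are therefore called labelled Nnmt-OE. The renal markers Pax8 (214 to 273 CPM) and Aqp1 (599 to 1142 CPM) were present in each library, whereas the epithelial markers Epcam and Cdh1 were at 0 in all 12. Krt18, Krt19 and Cldn4, also epithelial, reached 1.94 CPM at most. The proximal tubule markers Cubn, Slc34a1, Slc5a2 and Ggt1 reached 2.92 CPM at most. Mock replicate 1, mock with TGFβ replicate 3 and labelled Nnmt-OE with TGFβ replicate 3 stood apart from the rest on the first 3 principal components. The numbering of libraries in the labels runs in 1 block for each group, so handling and group cannot be told apart. Nothing says that replicates were separate cultures, and p-values measure the spread between these libraries, which may be technical.

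The promoters of the chaperone genes carry the best known DNA elements of this response, and they are shown because they separate the members by sequence. The ER stress response element (ERSE), the site that NF-Y and Atf6 or Xbp1 bind together, was searched as CCAAT and CCACG with 9 bases of any kind between them, on both strands of 300-base promoters (250 bases before to 50 after the gene's start, RefSeq, GRCm38.p6). Of the 30 members with a promoter entry, 8 held it (26.7%), against 37 of 27025 genes (0.137%). The 37 include these 8, and the members were chosen as genes of this response. For this motif and those below, the difference in share between members and all genes is therefore not an independent result. Each match is given in the direction of the motif with 12 bases on either side, and capitals mark the fixed letters.
Hspa5, chr2:34772013-34772055, plus strand: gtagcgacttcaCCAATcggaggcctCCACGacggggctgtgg
Hsp90b1, chr10:86705626-86705668, minus strand: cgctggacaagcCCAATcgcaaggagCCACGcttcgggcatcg
Hsp90b1, chr10:86705521-86705563, plus strand: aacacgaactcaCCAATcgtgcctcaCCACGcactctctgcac
Calr, chr8:84847063-84847105, plus strand: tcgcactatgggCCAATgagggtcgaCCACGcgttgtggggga
Canx, chr11:50325788-50325830, minus strand: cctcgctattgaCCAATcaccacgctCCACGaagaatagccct
Creld2, chr15:88819508-88819550, minus strand: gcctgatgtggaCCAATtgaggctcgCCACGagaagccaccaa
Pdia6, chr12:17266479-17266521, plus strand: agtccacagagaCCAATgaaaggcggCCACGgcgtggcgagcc
Dnajc3, chr14:118937815-118937857, plus strand: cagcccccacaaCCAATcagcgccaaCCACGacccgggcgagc
Syvn1, chr19:6046520-6046562, plus strand: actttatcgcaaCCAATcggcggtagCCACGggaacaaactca
These matches lay between 212 and 26 bases before the start. They belong to 5 genes of the chaperone group, 1 disulfide isomerase, 1 co-chaperone and 1 ubiquitin ligase. A match is a description of letters and not a measured binding site.

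Other elements were rarer or less particular. The second ER stress element, ATTGG and CCACG with 1 base of any kind between them, was in 2 members (6.67%), Dnajb11 and Herpud1, against 12 genes (0.0444%). The Atf4 site searched as TGATGNAAN was in 4 members (13.3%), Herpud1, Trib3, Chac1 and Nupr1, against 1215 genes (4.5%). The Xbp1 site TGACGTGG was in 0 of 30 members and in 193 genes (0.714%). The Atf4 site of Trib3 and the second ER stress element of Dnajb11 lie after the gene's start and are not shown. The stretches below show the matches that lie before it, and none of these motifs overlaps another there.
Herpud1, second ER stress element, chr8:94386365-94386399, plus strand: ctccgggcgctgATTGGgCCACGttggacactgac
Herpud1, Atf4 site, chr8:94386304-94386336, minus strand: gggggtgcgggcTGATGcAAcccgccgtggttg
Chac1, Atf4 site, chr2:119351036-119351068, minus strand: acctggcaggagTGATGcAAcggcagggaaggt
Nupr1, Atf4 site, chr7:126625561-126625593, plus strand: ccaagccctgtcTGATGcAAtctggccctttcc
The 3 members that passed the test for TGFβ over both constructs, described below, were Ddit3, Edem1 and Ssr1. These 3 held none of the 4 motifs in their windows. The 150 bases before their starts are given for comparison, in the direction of the gene, all in lower case because no motif was found.
Ddit3, chr10:127290643-127290792, plus strand: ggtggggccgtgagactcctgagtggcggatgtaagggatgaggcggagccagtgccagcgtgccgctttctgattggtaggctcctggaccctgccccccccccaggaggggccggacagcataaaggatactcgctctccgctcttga
Edem1, chr6:108828491-108828640, plus strand: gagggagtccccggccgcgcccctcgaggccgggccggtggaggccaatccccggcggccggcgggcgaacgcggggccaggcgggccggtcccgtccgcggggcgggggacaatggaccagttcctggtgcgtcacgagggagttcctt
Ssr1, chr13:37994209-37994358, minus strand: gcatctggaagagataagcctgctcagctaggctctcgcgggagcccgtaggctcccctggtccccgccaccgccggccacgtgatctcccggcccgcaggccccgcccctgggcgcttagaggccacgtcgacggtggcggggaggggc
No match says only that these letters are not in the window searched. Other members, Atf4 and Xbp1 among them, held none of the 4 motifs either.

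The members differed far more in level than in response. Mean CPM over the 12 libraries ran from 5.55 for Dnajb9, an ER co-chaperone, to 1224 for Hspa5 (BiP), the main ER chaperone. There were 6 members at 500 CPM or more: Hspa5, Hsp90b1 (898 CPM), Calr (828 CPM), Atf4 (749 CPM), Pdia3 (597 CPM) and Canx (563 CPM). These 6 made up 63.3% of the members' summed CPM. Only Ern1 (6.65 CPM) and Dnajb9 were under 10 CPM. The 8 genes with an ERSE match had a median mean level of 488 CPM, from 48.2 to 1224, and the 22 other members with a promoter entry one of 60.25 CPM, from 5.55 to 749. Together the members took 0.734 to 0.805% of the reads in genes of a library.

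**Figure D1:**
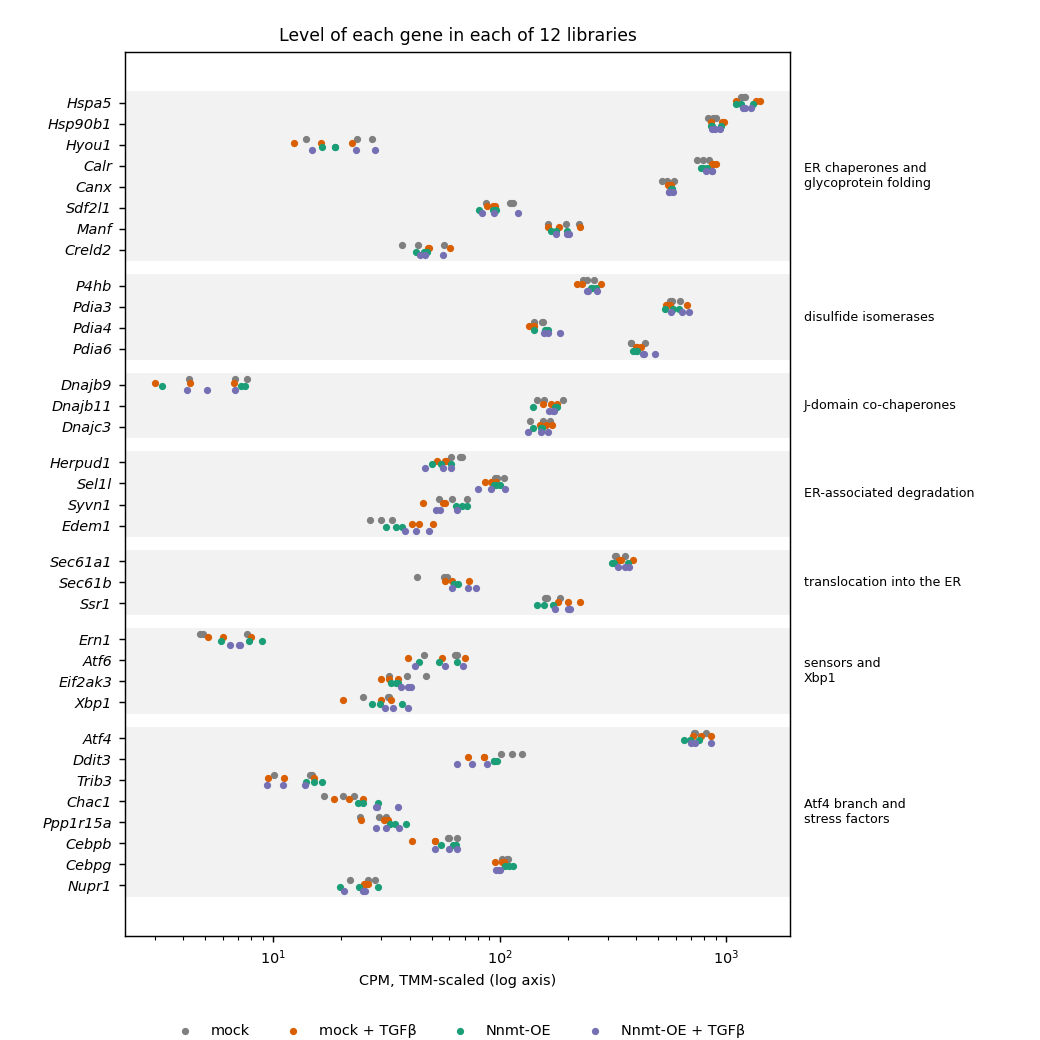
CPM of each of the 34 genes (rows, grouped by role) in each of the 12 libraries (points, coloured by group) on a log axis. Levels run from 5.55 (Dnajb9) to 1224 CPM (Hspa5) at the mean, and the 4 groups lie close together for most genes.

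Group means of a member differed little from one another. The highest group mean divided by the lowest was 1.15 at the median over members, and 18 of 34 members were under 1.2. Chac1 had the highest such ratio, 1.55. Within groups, the coefficient of variation was 10.4% at the median, from 3.46% for Canx to 34.1% for Dnajb9. For the 6 members at 500 CPM or more its median was 6.72%, and for the 6 under 30 CPM it was 20.1%. After Dnajb9, the widest spread was that of the chaperone Hyou1 (26.9%) and of the sensors Atf6 (22.6%) and Ern1 (21.1%).

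The question put to the TGFβ groups was whether the cytokine, given in both construct backgrounds, moved the response. Averaged over both constructs, 2 members rose, Edem1 and Ssr1, and 1 fell, Ddit3 (edgeR quasi-likelihood test, Benjamini-Hochberg adjusted p under 0.05 over all genes tested). The other 31 did not pass. Of all genes tested, 2.48% were called higher and 2.6% lower, and counts of 2 and 1 in 34 are too small to set apart from these shares. At an unadjusted p under 0.05 the members stood at 17.6% (6 of 34) and all genes at 16.6%. The median log2 fold change of the members was 0.01. Without the 3 libraries that stand apart, 3 members were again called over both constructs, Ddit3, Ssr1 and Calr, where 5.37% of genes were, while Edem1 was not (edgeR adjusted p = 0.0565), and in mock alone Ddit3 was not (edgeR adjusted p = 0.0571). Because whole cultures were measured, fewer cells of a type and less RNA per cell cannot be told apart in any of these values.

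Ddit3 (ENSMUSG00000025408), the transcription factor CHOP that promotes cell death under lasting ER stress, was lower with TGFβ. It stood at 113, 125 and 101 CPM in mock replicates 1 to 3 and at 72.6, 85.1 and 85 CPM in mock with TGFβ. In labelled Nnmt-OE it stood at 94.2, 94.3 and 97.7 CPM, and with TGFβ at 64.8, 87.9 and 75.5 CPM. Each of the 6 treated libraries was below each of the 6 untreated ones, a separation that 1.64% of genes tested showed in this direction. Over both constructs Ddit3 fell by 0.40 ± 0.09 (SE) on the log2 scale, a fold of 0.756 (95% interval 0.666 to 0.858, edgeR adjusted p = 0.00372).

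Within mock cells the log2 fold change of Ddit3 was -0.48 ± 0.13 (edgeR adjusted p = 0.0405), the single member called there. That call was lost in 7 of 12 fits with 1 library left out (edgeR adjusted p up to 0.231, without mock with TGFβ replicate 1). In labelled Nnmt-OE it was -0.33 ± 0.13 (edgeR adjusted p = 0.271), and the difference between the backgrounds was 0.16 ± 0.18 (edgeR adjusted p = 0.999). Ddit3 and Mars overlap by 68 bases at their 3′ ends on opposite strands (GENCODE M21), and the strand setting of the counting is not given. Mars averaged 69.5 CPM in mock without and 73.7 CPM with TGFβ, and in labelled Nnmt-OE 59.4 and 63.1 CPM. Its change with TGFβ over both constructs was 0.08 ± 0.10 log2 (edgeR adjusted p = 0.754). Whether the overlap has a part in the values of Ddit3 was not tested.

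Edem1 (ENSMUSG00000030104), a lectin that hands misfolded glycoproteins to degradation, was higher with TGFβ. Its values were 26.8, 29.9 and 33.5 CPM in mock and 44.1, 41.1 and 50.6 CPM in mock with TGFβ. In labelled Nnmt-OE they were 31.4, 34.8 and 37.1 CPM, and 48.8, 42.6 and 38.2 CPM with TGFβ. Again the 6 treated and 6 untreated libraries did not overlap, which 1.47% of genes tested showed in this direction, although 38.2 and 37.1 CPM lie close together. Edem1 rose 1.37-fold over both constructs (95% interval 1.15 to 1.63, log2 0.46 ± 0.12, edgeR adjusted p = 0.0194). The fold was 1.5 in mock (edgeR adjusted p = 0.0841) and 1.25 in labelled Nnmt-OE (edgeR adjusted p = 0.506).

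Ssr1 (ENSMUSG00000021427), a subunit of the translocon-associated protein complex beside the channel through which new chains enter the ER, was the second to rise. Mock libraries read 184, 162 and 159 CPM, and mock with TGFβ 181, 201 and 226 CPM. Labelled Nnmt-OE read 157, 146 and 172 CPM, and 205, 175 and 200 CPM with TGFβ. Mock replicate 1 lay inside the treated range and so the mock groups overlapped, while those of labelled Nnmt-OE did not. Ssr1 rose 1.21-fold over both constructs (95% interval 1.09 to 1.35, log2 0.28 ± 0.07, edgeR adjusted p = 0.018), with nearly equal values in mock (log2 0.27 ± 0.11, edgeR adjusted p = 0.246) and labelled Nnmt-OE (log2 0.29 ± 0.11, edgeR adjusted p = 0.215). Its call and that of Edem1 each depend on single libraries: without labelled Nnmt-OE with TGFβ replicate 1, the edgeR adjusted p was 0.063 for Ssr1 and 0.0769 for Edem1, and without mock with TGFβ replicate 3 it was 0.0549 and 0.0516. Ssr1 was also lost without labelled Nnmt-OE replicate 2 (edgeR adjusted p = 0.0512) and Edem1 without labelled Nnmt-OE replicate 1 (edgeR adjusted p = 0.0586).

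**Figure D2:**
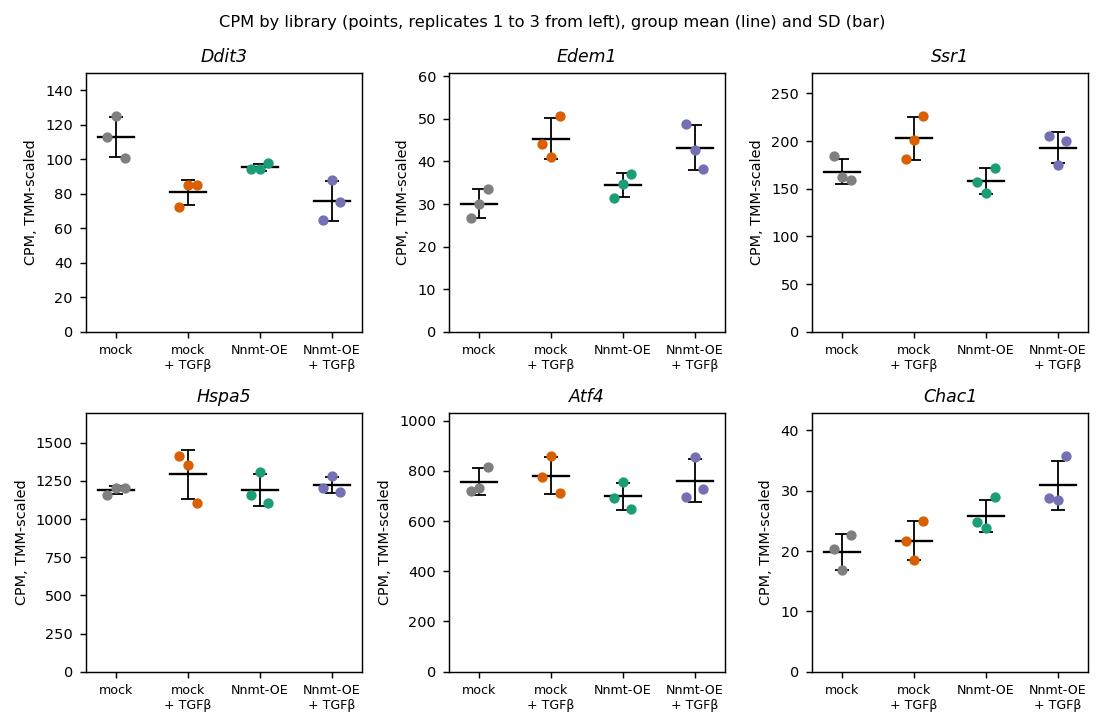
CPM of single genes by group, with a point for each library (replicates 1 to 3 from the left), a line at the group mean and a bar for the SD. The 6 TGFβ libraries lie below the 6 untreated ones for Ddit3 (64.8 to 87.9 against 94.2 to 125 CPM) and above them for Edem1 (38.2 to 50.6 against 26.8 to 37.1 CPM).

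Among the chaperones and glycoprotein folding factors, 0 of 8 passed with TGFβ over both constructs, and log2 fold changes ran from -0.02 to 0.15 with a median of 0.04. Hspa5 stood at 1159, 1206 and 1201 CPM in mock and 1411, 1357 and 1108 CPM in mock with TGFβ. In labelled Nnmt-OE it stood at 1159, 1309 and 1106 CPM, and at 1206, 1282 and 1180 CPM with TGFβ. Its groups overlapped throughout, and the change over both constructs, 0.08 ± 0.06 log2, had a 95% interval of -0.04 to 0.20, so a change of 1.5-fold lies outside it. Calr, a lectin chaperone that also stores calcium, averaged 789 ± 47.9 CPM in mock and 880 ± 17.2 CPM with TGFβ, and 798 ± 24.4 and 847 ± 31.6 CPM in labelled Nnmt-OE. The 3 mock libraries did not overlap with their treated ones, but the change over both constructs (0.12 ± 0.05 log2) did not pass the test (edgeR adjusted p = 0.228). The partner lectin Canx (log2 0.00), Hsp90b1, the ER Hsp90 (0.06), Manf, a secreted ER protein (0.03) and Creld2 (0.15) did not pass either.

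Hyou1 and Sdf2l1 were the chaperone genes with the widest differences between the backgrounds. Hyou1, an exchange factor for Hspa5, read 13.9, 27.4 and 23.5 CPM in mock and 22.3, 12.3 and 16.3 CPM with TGFβ. In labelled Nnmt-OE it read 16.4, 18.8 and 18.7 CPM, and 23.3, 14.9 and 28.1 CPM with TGFβ. The libraries of a group were as far apart as the groups, and the difference between the TGFβ changes, 0.64 ± 0.38 log2, had an edgeR adjusted p of 0.999. Sdf2l1, part of a complex around Hspa5, read 86.9, 115 and 111 CPM in mock, 93.2, 95 and 88 CPM with TGFβ, 96.5, 81.3 and 93.6 CPM in labelled Nnmt-OE and 94.5, 120 and 83.2 CPM with TGFβ. Its groups overlapped, and the difference between the TGFβ changes was 0.31 ± 0.19 log2 (edgeR adjusted p = 0.999).

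None of the 4 disulfide isomerases, which form and rearrange disulfide bonds, passed with TGFβ, and their log2 fold changes over both constructs lay between -0.02 and 0.11. Pdia3, which works with Calr and Canx, read 625, 562 and 574 CPM in mock, 540, 567 and 674 CPM with TGFβ, 617, 537 and 581 CPM in labelled Nnmt-OE and 571, 636 and 687 CPM with TGFβ. Pdia6, which also binds the sensor Ern1, read 378, 440 and 379 CPM in mock, 399, 419 and 402 CPM with TGFβ, 403, 399 and 386 CPM in labelled Nnmt-OE and 435, 429 and 484 CPM with TGFβ. For Pdia6 the groups of labelled Nnmt-OE did not overlap, with a change of 0.18 ± 0.09 log2 that did not pass (edgeR adjusted p = 0.416). P4hb, the founding isomerase, stayed between 243 and 258 CPM in group means.

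The J-domain proteins, which drive the ATP cycle of Hspa5, had 0 of 3 called. Dnajb11 read 146, 157 and 191 CPM in mock, 179, 156 and 169 CPM with TGFβ, 140, 179 and 176 CPM in labelled Nnmt-OE and 171, 165 and 173 CPM with TGFβ. Its groups overlapped, and the TGFβ change over both constructs was 0.04 ± 0.08 log2 (95% interval -0.12 to 0.19). Dnajc3, an inhibitor of the kinase branch, had group means from 148 to 160 CPM. Dnajb9, which rests on as few as 17 reads in a library, had an interval of -0.96 to 0.39 log2. A rise of 1.5-fold lies outside it, but it is too wide to say whether Dnajb9 fell by 1.5-fold.

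In ER-associated degradation, the disposal of misfolded proteins through the membrane, Edem1 was the 1 of 4 members that passed. The ligase Syvn1 averaged 62.3 ± 8.83 CPM in mock and 53.1 ± 6.25 CPM with TGFβ, and 67.9 ± 3.93 and 57.2 ± 6.56 CPM in labelled Nnmt-OE. Its change over both constructs, -0.24 ± 0.10 log2, did not pass (edgeR adjusted p = 0.222), and its 3′ end overlaps that of Mrpl49 on the opposite strand by 91 bases. Sel1l, the adaptor of Syvn1, read 104, 95 and 97.4 CPM in mock, 96.1, 85.7 and 91.6 CPM with TGFβ, 100, 94 and 96 CPM in labelled Nnmt-OE and 105, 80.5 and 91.7 CPM with TGFβ. Its groups overlapped (log2 -0.09 ± 0.09 over both constructs). Herpud1, a membrane protein of the same complex, had a log2 fold change of -0.12 ± 0.10.

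The 3 translocation genes all had positive log2 fold changes with TGFβ over both constructs, of which Ssr1 alone passed. Their summed CPM was 541 to 574 in mock and 617 to 626 with TGFβ, and 534 to 578 in labelled Nnmt-OE and 596 to 655 with TGFβ, so the sums did not overlap within either construct. Whether sums of other genes separate as often was not tested. Sec61a1, the pore of the channel, read 326, 322 and 357 CPM in mock, 387, 342 and 337 CPM with TGFβ, 312, 370 and 321 CPM in labelled Nnmt-OE and 372, 357 and 334 CPM with TGFβ. Its change was 0.08 ± 0.06 log2, and its groups overlapped. Its 3′ end overlaps the antisense gene Gm44170, which has 0 reads in the table, by 189 bases. The 3′ ends of Hsp90b1, Pdia6 and Ppp1r15a overlap a gene on the opposite strand by 11 to 50 bases, and those of Hsp90b1 and Manf one on the same strand, by 63 and 14 bases, so these counts are uncertain too. Sec61b, a small subunit of that channel, read 43, 56.6 and 58.5 CPM in mock, 57.3, 73 and 61.5 CPM with TGFβ, 65.2, 63.1 and 62.7 CPM in labelled Nnmt-OE and 78.5, 72.2 and 61.3 CPM with TGFβ. Its change, 0.22 ± 0.10 log2, did not pass (edgeR adjusted p = 0.284), and the count is uncertain because Gm10320 is 98.3% identical to it over 474 bases and took 1002 reads over the 12 libraries.

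None of Ern1, Atf6, Eif2ak3 and Xbp1 passed with TGFβ, and log2 fold changes over both constructs ran from -0.05 to 0.02. The sensor Atf6 read 46.5, 63.4 and 64.9 CPM in mock, 55.8, 70.5 and 39.4 CPM with TGFβ, 64.9, 53.7 and 44.1 CPM in labelled Nnmt-OE and 57.4, 68.9 and 42.1 CPM with TGFβ. Its groups overlapped, with a 95% interval of -0.30 to 0.28 log2. The kinase Eif2ak3 read 38.9, 47.5 and 32.5 CPM in mock, 30, 35.4 and 32.3 CPM with TGFβ, 35.6, 33 and 34.9 CPM in labelled Nnmt-OE and 40.5, 36.7 and 39.2 CPM with TGFβ. Treated libraries of labelled Nnmt-OE were all above their untreated ones, whereas those of mock overlapped, and the difference between the TGFβ changes was 0.45 ± 0.25 log2 (edgeR adjusted p = 0.999). Xbp1 averaged 27.8 to 34.8 CPM. A count of 3′ tags does not see the splicing of Xbp1, the cutting of Atf6 or the phosphorylation of Eif2ak3, so the state of the sensors was not measured.

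Of the Atf4 branch and its stress factors, Ddit3 was the 1 of 8 members that passed. Atf4 itself, which is controlled mainly through translation, read 719, 731 and 817 CPM in mock, 774, 858 and 710 CPM with TGFβ, 690, 755 and 649 CPM in labelled Nnmt-OE and 697, 857 and 728 CPM with TGFβ. Its groups overlapped, and its change was 0.09 ± 0.06 log2 (95% interval -0.04 to 0.21). Cebpb, a factor that pairs with Atf4 and Ddit3, read 59.7, 59 and 64.9 CPM in mock, 51.8, 51.7 and 41 CPM with TGFβ, 63.8, 55.3 and 62.4 CPM in labelled Nnmt-OE and 51.7, 64.7 and 59.8 CPM with TGFβ. The mock groups did not overlap, with a change of -0.34 ± 0.15 log2 that did not pass (edgeR adjusted p = 0.321), and in labelled Nnmt-OE it was -0.04 ± 0.15. Trib3, a pseudokinase that Atf4 and Ddit3 induce, had -0.27 ± 0.21 over both constructs, and Ppp1r15a, which restores translation, -0.04 ± 0.14. The bZIP partner Cebpg had -0.12 and the stress protein Nupr1 -0.01.

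**Figure D3:**
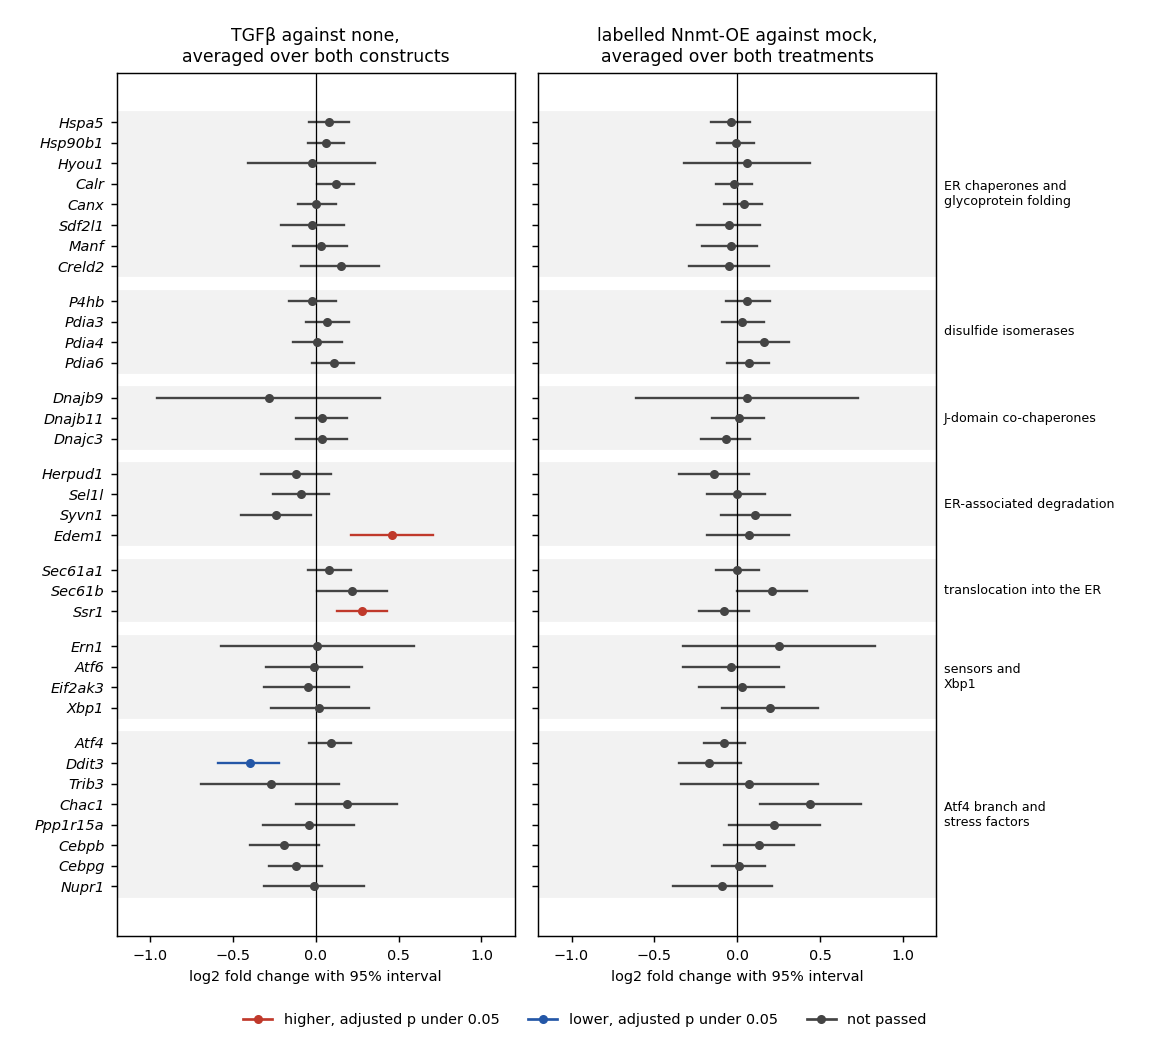
Log2 fold change of each gene with its 95% interval, for TGFβ and for the construct. Edem1 and Ssr1 are marked as higher and Ddit3 as lower with TGFβ, and no gene is marked for the construct.

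The TGFβ changes were also set side by side in the 2 backgrounds, which share no library. In mock cells 0 members were called higher and 1 lower, where 0.667 and 0.76% of genes tested were. There 5 members (14.7%) had an unadjusted p under 0.05, against 11.9% of genes. In labelled Nnmt-OE 0 were called by edgeR, where 0.651% of genes were called higher and 0.744% lower, and 3 members (8.82%) had an unadjusted p under 0.05, against 11.1% of genes. DESeq2 likewise called 0 members in labelled Nnmt-OE, where it called 2.29% of genes, and in mock it called Ddit3 and Edem1, with 2.37% of genes called. Signs matched for 23 of 34 members (67.6%), with 14 higher and 9 lower in both, and for 61.1% of all genes tested. Across these 34 genes, which are not independent and share libraries, Pearson's r of the log2 fold changes was 0.47, and across all genes tested it was 0.23.

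**Figure D4:**
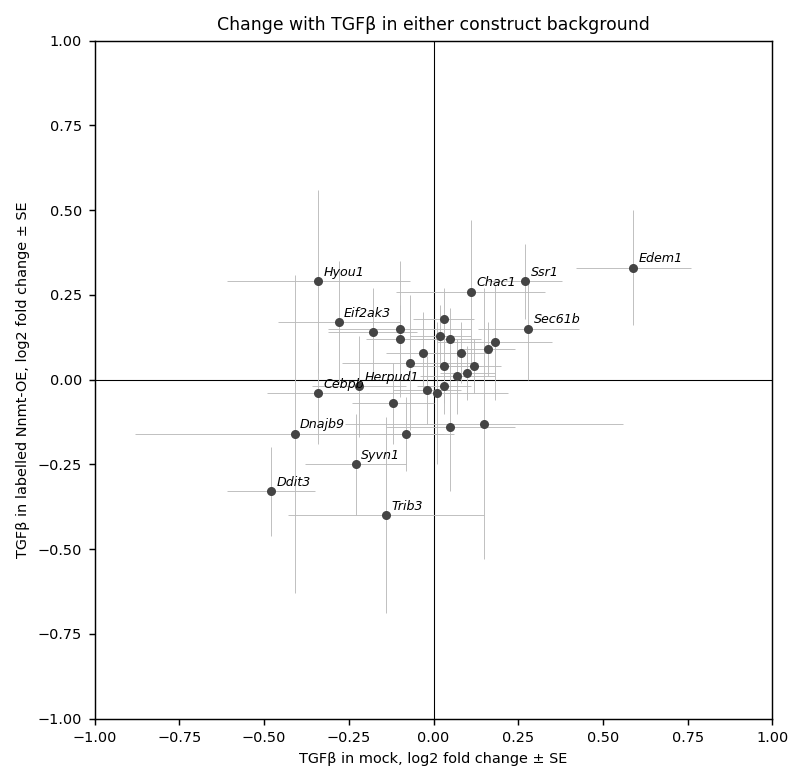
Log2 fold change with TGFβ in mock (horizontal) and in labelled Nnmt-OE (vertical), with the SE, for each of the 34 genes. Ddit3 lies lowest on the horizontal axis at -0.48 and Edem1 highest at 0.59, and 23 of 34 genes have the same sign on both axes.

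Without overlap between the 3 treated and 3 untreated libraries, mock cells had 2 members higher (Calr and Edem1) and 3 lower (Herpud1, Ddit3 and Cebpb), where 7.78 and 8.58% of genes tested were separated in these directions. Labelled Nnmt-OE cells had 4 higher (Pdia6, Edem1, Ssr1 and Eif2ak3) and 3 lower (Ddit3, Trib3 and Cebpg), where 8.7 and 8.89% of genes were. Edem1 and Ddit3 were on both lists. The intervals of 33 of 34 members lay inside a 2-fold change in each background, and those of 26 in mock and 27 in labelled Nnmt-OE inside 1.5-fold.

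The other question was what the construct changed. In labelled Nnmt-OE against mock, 0 of 34 members were called without TGFβ (0.0388% of genes tested were called), 0 with TGFβ (0.0233%) and 0 over both treatments (0.0698%), by edgeR. At an unadjusted p under 0.05 the members numbered 0, 2 (5.88%) and 2 (5.88%), against 5.84, 4.46 and 6.23% of genes, and DESeq2 called 0 in each. The difference between the TGFβ changes of the backgrounds gave 0 members and 0 genes (0%), with 0 members and 3.88% of genes at an unadjusted p under 0.05, and DESeq2 called 0 members. The intervals of all 34 members over both treatments lay inside a 2-fold change and those of 31 inside 1.5-fold. These are bounds on the size of a change and do not show that levels were equal.

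Chac1, an enzyme that degrades glutathione and a target of Atf4, came nearest to a call for the construct. Mock libraries read 20.3, 16.8 and 22.7 CPM, and labelled Nnmt-OE libraries 24.8, 23.8 and 28.9 CPM. With TGFβ, mock read 21.6, 18.5 and 24.9 CPM, and labelled Nnmt-OE 28.8, 28.4 and 35.7 CPM. The construct libraries were above the mock ones within each treatment, but not across treatments. The fold over both treatments was 1.36 (95% interval 1.1 to 1.68, log2 0.44 ± 0.15), which did not pass (edgeR adjusted p = 0.575).

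Pdia4, a disulfide isomerase, read 155, 153 and 141 CPM in mock libraries against 159, 141 and 163 CPM in labelled Nnmt-OE. With TGFβ it read 141, 142 and 135 CPM against 184, 163 and 157 CPM. The groups overlapped without TGFβ and not with it, where the log2 difference was 0.27 ± 0.10 (edgeR adjusted p = 0.998). Sec61b was higher in each of the 3 untreated construct libraries than in mock, with 0.21 ± 0.10 log2 over both treatments (edgeR adjusted p = 0.794). Without TGFβ 5 members did not overlap (Sec61b, Chac1 and Ppp1r15a higher, Herpud1 and Ddit3 lower), where 5.64% of genes tested were higher and 5.29% lower without overlap. With TGFβ there were again 5 (Pdia4, Pdia6, Eif2ak3 and Chac1 higher, Calr lower), against 5.27 and 4.95%. Chac1 alone was on both lists.

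Hspa5 differed by -0.04 ± 0.06 log2 between constructs over both treatments (95% interval -0.16 to 0.08) and Atf4 by -0.08 ± 0.06 (95% interval -0.20 to 0.05). Role by role, the median log2 difference was -0.03 for chaperones, 0.07 for disulfide isomerases, 0.01 for co-chaperones, 0.03 for degradation, 0.00 for translocation, 0.11 for sensors and 0.04 for the Atf4 branch, with the median of all genes tested at 0. In these same libraries the immediate-early genes, which respond to handling as well as to growth factors, were higher in labelled Nnmt-OE. Their summed share was 0.0719 to 0.0783% of reads in mock and 0.111 to 0.12% in labelled Nnmt-OE. Over both treatments 5 of 12 were called, where 0.0698% of all genes tested were. The part of the immediate-early genes in the values of Chac1, Ppp1r15a and Ddit3 was not tested.

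**Figure D5:**
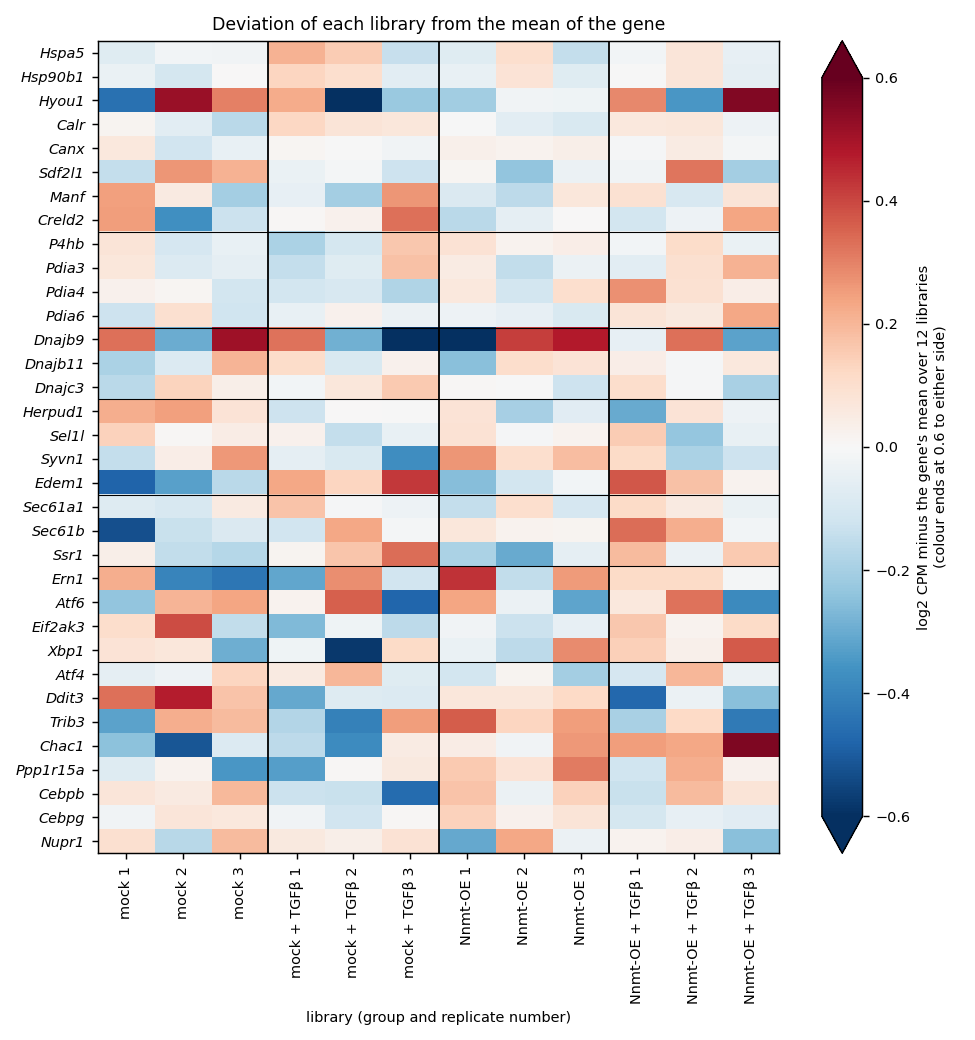
Deviation of each library (columns) from the gene's mean over the 12 libraries, in log2 CPM, for each of the 34 genes (rows), with the colour scale ending at 0.6 to either side. Ddit3 is below its mean in the 6 TGFβ columns, and no library is shifted in 1 direction across all genes.

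The number of members above the mean of the library's own group was 13 to 21 of 34, a count that leaves out any shift a whole group shares. Against the mean of all 12 libraries it was 14 to 24 of 34, with labelled Nnmt-OE with TGFβ replicate 2 at 24. The summed CPM of the members was 7492 to 7564 in mock and 7630 to 7923 with TGFβ, and 7342 to 7652 in labelled Nnmt-OE and 7682 to 8049 with TGFβ. The sums did not overlap within either construct, although labelled Nnmt-OE reached 7652 and so overlapped the treated mock libraries. The 6 highest members made up 63.3% of the summed CPM. The median log2 fold change of the members with TGFβ over both constructs was 0.01. How often sums of other genes separate in this way was not tested. The summed share of mitochondrial transcripts was 6.25 to 7.24% in mock, 6.44 to 6.64% in mock with TGFβ, 6.59 to 6.83% in labelled Nnmt-OE and 6.02 to 6.51% with TGFβ. Of 8 such transcripts tested, mt-Rnr2 fell with TGFβ over both constructs, by 0.17 log2 (edgeR adjusted p = 0.0251), where 2.6% of all genes were called lower.

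The ERSE members and the rest can be compared on measured values that the motif search did not use. With TGFβ over both constructs, the 8 genes with an ERSE match had a median log2 fold change of 0.07, from -0.24 (Syvn1) to 0.15 (Creld2), with 7 of 8 above 0 and 0 called. The 22 others with a promoter entry had a median of -0.02, from -0.40 (Ddit3) to 0.46 (Edem1), with 10 above 0. Of all genes tested, 49.2% were above 0, and the 7 ERSE genes above 0 include Canx at 0.00. All 3 called members are among the 22 without the element, but so are most members with a promoter entry. For the construct the medians were -0.02 and 0.04. The ranges of both sets overlap, and these counts are descriptions.

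Further genes of the same pathways were read from lists that hold none of the 34 members. The lists were chosen with earlier results of these data known, so their counts are descriptions. Of all genes tested, 2.48% were called higher and 2.6% lower with TGFβ over both constructs. With TGFβ over both constructs, 0 of 22 other ER folding enzymes, 0 of 17 other degradation genes, 0 of 18 genes of ER to Golgi carriers and 0 of 9 collagen folding genes were called, with medians of 0.04, -0.04, 0.04 and 0.05 log2. Of 21 other genes of translocation, signal peptidase and glycan transfer, 1 rose, Spcs3, a signal peptidase subunit, with a log2 fold change of 0.59 ± 0.11 (edgeR adjusted p = 0.00271), and the median was 0.11. Spcs3 averaged 105 ± 29.6 CPM in mock, 160 ± 23.9 CPM with TGFβ, 132 ± 15.9 CPM in labelled Nnmt-OE and 195 ± 13.6 CPM with TGFβ. Of 16 sensors and regulators, 1 fell, Nfe2l2, an antioxidant factor that PERK can activate (log2 -0.42 ± 0.08, edgeR adjusted p = 0.000663).

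Atf4 also controls amino acid supply, and there 3 of 28 genes rose and 1 fell, where 2.48% of all genes tested rose and 2.6% fell. Asns, asparagine synthetase, read 56.3, 54.3 and 56.7 CPM in mock and 86.6, 85.4 and 82.2 CPM with TGFβ, and 54.7, 66.3 and 59.4 CPM in labelled Nnmt-OE and 66.8, 68.5 and 70.1 CPM with TGFβ. The 6 treated libraries were above the 6 untreated ones, which 1.47% of genes tested showed in this direction. The values 66.8 and 66.3 CPM lie close together, though. Asns rose by 0.39 ± 0.09 log2 over both constructs (edgeR adjusted p = 0.00638). Its mean went from 55.8 to 84.7 CPM in mock and from 60.1 to 68.5 CPM in labelled Nnmt-OE. Psat1, of serine synthesis (0.29, edgeR adjusted p = 0.0257), and Tars, which charges threonine transfer RNA (0.27, edgeR adjusted p = 0.026), rose as well, and Got1, an aspartate transaminase, fell by 0.26 (edgeR adjusted p = 0.023). Asns thus moved opposite to Ddit3 in the same libraries.

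Of 16 stress outputs linked to Atf4 or Ddit3, 1 rose and 2 fell, where 2.48% of all genes tested rose and 2.6% fell. Nfil3, a bZIP repressor, rose by 0.66 ± 0.18 log2 (edgeR adjusted p = 0.0237). Txnip, which inhibits thioredoxin and follows glucose supply, fell by 0.60 ± 0.08 (edgeR adjusted p = 2.28e-06), and Bbc3, the death factor PUMA, fell by 0.36 ± 0.09 (edgeR adjusted p = 0.0137). Of 15 cytosolic heat shock genes 1 rose, Hsph1 (0.37 ± 0.08, edgeR adjusted p = 0.00262). At an unadjusted p under 0.05 with TGFβ over both constructs, the 9 lists differed, where all genes stood at 16.6%. Stress outputs stood at 50%, amino acid supply at 39.3%, translocation and heat shock at 33.3% each and collagen folding at 22.2%. Other folding enzymes stood at 13.6%, degradation at 11.8%, sensors and regulators at 6.25% and ER to Golgi carriers at 0%. For the construct, 0 genes of these 9 lists were called in either treatment or over both.

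Of the markers of other cell types, Col1a1, a fibroblast collagen, was called with TGFβ. The 6 fibroblast markers summed to 3.2 to 5.51 CPM in mock, 6.89 to 10.9 CPM with TGFβ, 1.47 to 8.04 CPM in labelled Nnmt-OE and 9.42 to 14.5 CPM with TGFβ, of which Col3a1 and Lum were at 0 in all libraries. Col1a1, the 1 of these 6 with enough reads to be tested, read 1.42, 5.51 and 4.74 CPM in mock and 7.71, 9.79 and 6.89 CPM with TGFβ, and rose by 1.34 log2 over both constructs (edgeR adjusted p = 0.0124). The 5 endothelial markers reached 0.165 CPM at most, and 0 were tested. The leukocyte markers summed to 55.2 to 96.3 CPM, nearly all Csf1r, with Cd3e at 0, and neither of the 2 tested passed (lowest edgeR adjusted p = 0.576). The 6 proximal tubule markers summed to 943 to 1189 CPM in mock, 720 to 800 CPM with TGFβ, 1251 to 1263 CPM in labelled Nnmt-OE and 813 to 863 CPM with TGFβ. Nearly all of these sums was Aqp1 (599 to 1142 CPM) and Lrp2 (109 to 158 CPM). Cubn, Slc34a1, Slc5a2 and Ggt1 reached 2.92 CPM at most. Of the 6 markers, 1 of 3 tested was called over both constructs, where 2.6% of all genes tested were called lower. This was Aqp1, a water channel, which fell by 0.60 log2 (edgeR adjusted p = 8.98e-10). Of the general tubular markers, Cdh16 fell by 0.63 log2 over both constructs (edgeR adjusted p = 9.94e-06), the keratin Krt8 rose by 0.38 (edgeR adjusted p = 0.00766), and Pax2 and Pax8 did not pass. Of the 12 immediate-early genes tested, 1 was called higher with TGFβ over both constructs, where 2.48% of all genes tested were. It was Ier3 (0.31 log2, edgeR adjusted p = 0.0238). Another 2 were called lower, where 2.6% of all genes were: Egr1 (-0.61 log2, edgeR adjusted p = 2.25e-07) and Btg2 (-0.28 log2, edgeR adjusted p = 0.0309). The summed share of the immediate-early genes was 0.0695 to 0.0747% of reads in mock with TGFβ and 0.1 to 0.111% in labelled Nnmt-OE with TGFβ. The part of any of these genes in the values of Ddit3, Edem1 and Ssr1 was not tested.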

How the data were processed

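The deposited table holds raw counts of reads per gene for 12 libraries made from 100 ng of RNA with QuantSeq 3′ FWD, per the labels' protocols. The submitters' processing notes name STAR, HTSeq (neither with a version) and the human build GRCh38, while the identifiers are of mouse genes. For neither the annotation release nor the strand used in counting is a value given in the sources used here. The 5 HTSeq summary rows were left out (reads outside genes 26.4 to 28.79%, ambiguous 0.6 to 0.68%). GENCODE M21 names matched 55141 of 55487 identifiers. Ddit3 is the name of 2 identifiers, of which the one with reads was used.

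Samples were grouped by title. All 12 libraries entered 1 fit in edgeR 4.0.16 under R 4.3.3, with a mean for each group, filterByExpr (minimum count 10, total 15), TMM factors of 0.981 to 1.011 and the robust quasi-likelihood F test. Benjamini-Hochberg adjustment ran over 12897 genes, at 0.05. Reads were counted, and molecular identifiers are not mentioned. CPM use TMM-scaled library sizes.

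The members and lists were chosen with earlier results of these data known. A member is given library by library where it passed any of the 7 contrasts, had 1 of the 3 smallest p-values in one, or led its role by mean CPM. Other lists name up to 3 called genes. Motifs were searched in RefSeq promoters (GRCm38.p6), and 3′ overlaps in the last 500 bases of GENCODE M21 genes. Sec61b copies were found at 95% identity over at least 100 bases. The alternatives were DESeq2 1.42.0, limma-voom (limma 3.58.1), RLE scaling, scaling by totals, no filter, a stricter filter, a replicate block, the compared groups only and each library left out. After seeing the data, a fit leaving out the 3 libraries that stand apart was added. The fit was tested on simulated counts, drawn independently for each library with the spread that the fit estimated. Such counts do not bear on the libraries that stand apart or on handling.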

Additional observations from a re-analysis of the deposited data

How the results depend on the processing

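Over 21 alternatives, 432 recomputed values of the members with the smallest p-values in each contrast kept their sign, and 415 of them also kept their side of the threshold. These members were picked by p-value in the same libraries, so the kept signs are not an independent result. Most were not called in the main fit either. The 16 values that lost a call were those of Ddit3 in mock and of Ssr1 and Edem1 over both constructs. With TGFβ over both constructs, 3 members were called under each scaling, test and filter and without the 3 libraries that stand apart (there Calr was called and Edem1 was not, edgeR adjusted p = 0.0565), and 1 to 3 with 1 library left out. The count was 1, Ddit3, without mock with TGFβ replicate 3 or without labelled Nnmt-OE with TGFβ replicate 1. Ddit3 was called in all 12 of these fits (edgeR adjusted p from 0.00198 to 0.0231), and Ssr1 and Edem1 each in 9.

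The call of Ddit3 in mock cells alone is less firm. The count of members called there was 0 with only the groups compared (edgeR adjusted p = 0.0991), 0 without the 3 libraries that stand apart (0.0571), 2 with DESeq2, and 0 to 1 with 1 library left out, being 0 in 7 of 12 fits (without mock replicate 1 or 2, any replicate of mock with TGFβ, or labelled Nnmt-OE replicate 1 or 3), with an edgeR adjusted p of up to 0.231 (without mock with TGFβ replicate 1). The other 5 contrasts gave 0 members under each alternative run. With the replicate number as a block the counts were again 1 in mock and 3 over both constructs, but libraries of the same number did not deviate together (r from -0.1 to 0.05 over 18 pairs), so the numbers do not pair them.

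Counts over all genes moved more: for TGFβ in mock 184 became 92 with only the groups compared, 306 with DESeq2 and 98 at the lowest with 1 library left out. In labelled Nnmt-OE 180 became 351 with only the groups compared, 295 with DESeq2 and 97 to 305 with 1 library left out. For the construct, 5 genes without TGFβ became 13 with no filter and 3 with only the groups compared, 3 with TGFβ became 1 at the lowest with 1 library left out, and 9 over both treatments became 19 with no filter, 26 with DESeq2 and 5 at the lowest with 1 library left out. Depth limits Dnajb9 and Ern1, with as few as 17 and 23 reads in a library.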
